A study of Danio rerio with 8 samples.

Results

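The 8 genes described here encode proteins that the liver secretes into the blood: the protease inhibitors serpina1 and serpina1l, the fetuins ahsg1 and fetub, the retinol and thyroid hormone carriers rbp4 and ttr, the heme binder hpx, and the precursor protein ambp. They were taken as a list of 3 Ensembl gene identifiers and 5 symbols, and all 8 were found among the 31953 gene IDs of the count files. The gene table writes ttr and rbp4 as TTR and RBP4, and hpx was matched through its older name to hpxa. The members are serpina1 (ENSDARG00000090286), serpina1l (ENSDARG00000090850), ahsg1 (ENSDARG00000026764), fetub (ENSDARG00000053973), TTR (ENSDARG00000037191), RBP4 (ENSDARG00000101199), hpxa (ENSDARG00000012609) and ambp (ENSDARG00000004296). The study sequenced RNA of TU strain zebrafish (Danio rerio) to look for genes downstream of zfpm1, a FOG family cofactor of GATA transcription factors. The groups compared are hearts of zfpm1 mutant fish at 21 days post fertilisation (dpf), with 3 libraries, and hearts of control fish of the same strain and age, with 3 libraries. The labels name no allele or zygosity and do not tell whether a library is 1 fish or a pool, so p-values reflect only library-to-library spread, possibly technical.

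Most plasma proteins are made by hepatocytes, which secrete them in bulk, so their transcripts are among the most abundant in liver. Serpins trap proteases by a suicide mechanism, fetuins are cystatin-related glycoproteins, and the carriers move retinol, thyroid hormone or heme through the blood. In mammals RBP4 circulates bound to transthyretin, and AMBP is cut into a heme-binding lipocalin and bikunin, a protease inhibitor that is joined to the heavy chains of the inter-alpha-trypsin inhibitors.

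Total gene counts were 7614329 to 9909966 in mutant hearts and 8197337 to 9632464 in control hearts, and the first principal component, with 61.5% of the variance, separated the genotypes. The targeted gene ZFPM1 had 558, 471 and 956 counts in mutant hearts, replicates 1 to 3, and 419, 344 and 423 counts in control hearts, and did not pass the test (edgeR adjusted p 0.241), so its level neither checks nor contradicts the labels. Heart muscle markers were abundant in every library: 11 such genes summed to 25245 to 45435 CPM in mutant hearts and 54538 to 70260 CPM in control hearts. CPM are counts scaled to a common library size with TMM factors throughout. A further 2 libraries are labelled as embryos at 36 hours post fertilisation, 1 of each genotype, and their labels disagree with their totals: the library labelled control embryo has the same total of all lines, 19276348, as mutant heart replicate 1, and that labelled mutant embryo the same, 22649056, as control heart replicate 1. The embryo-labelled files entered no comparison, and results are also given without both heart libraries numbered 1.

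Of the 8 genes, 5 were higher in mutant hearts by the test, none was lower, 2 were tested and not called, and 1 had too few counts to be tested. The 5 are serpina1, serpina1l, ahsg1, fetub and ambp, with group means 44.0 to 81.3 times apart. Across all 16707 genes tested, 9.43% were called, 7.02% higher and 2.42% lower, at a Benjamini-Hochberg adjusted p under 0.05 in edgeR's quasi-likelihood test, and 16.8% had every mutant heart above every control heart. The median log2 fold change of the 7 tested members was 5.59, against -0.01 over all genes tested. The members that stayed outside the call are the carriers of retinol and thyroid hormone and hpxa, so not all of the list was called. Without both libraries numbered 1 the same number, 5 of 7, were called higher, where 5.18% of all genes tested were.

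**Figure D1:**
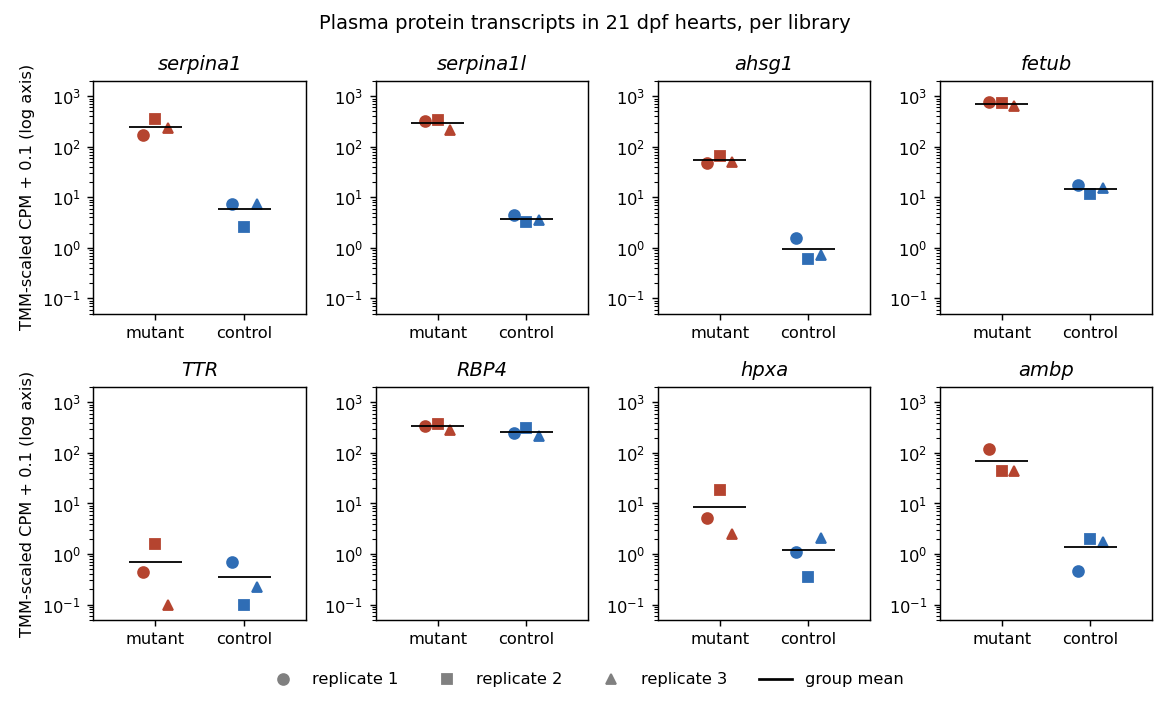
TMM-scaled CPM plus 0.1 (log axis) of each of the 8 genes in the mutant hearts, drawn left, and the control hearts, drawn right; each point is 1 library, its shape gives the replicate number, and lines are group means (n = 3 each). The mutant points of serpina1, serpina1l, ahsg1, fetub and ambp lie far above the control points, those of RBP4 overlap with them, and TTR stays near the bottom of the axis in all 6 hearts.

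The antitrypsin genes rose in mutant hearts. The gene serpina1, whose mammalian counterpart encodes alpha-1-antitrypsin, the plasma inhibitor of neutrophil elastase, had 167, 347 and 239 CPM in mutant hearts, replicates 1 to 3, and 7.22, 2.47 and 7.44 CPM in control hearts. The lowest mutant heart was 22.5 times the highest control heart. Its log2 fold change was 5.46 (SE 0.46), with an edgeR adjusted p of 0.000297 and a 95% interval of 4.41 to 6.50. The neighbouring gene serpina1l had 329, 331 and 216 CPM in mutant hearts and 4.28, 3.08 and 3.41 CPM in control hearts, so that replicates differed by a factor of at most 1.54 within mutants and 1.39 within controls. Its log2 fold change was 6.34 (SE 0.29, edgeR adjusted p 4.40e-05), and it had the smallest p-value of all genes tested. The 2 genes are next to each other on chromosome 20 of the RefSeq assembly GRCz12tu, and as similar paralogs their split of reads is uncertain.

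The proportion between these paralogs was not the same in all libraries. Counts of serpina1 were 0.509, 1.05 and 1.11 times those of serpina1l in mutant hearts, replicates 1 to 3, and 1.69, 0.800 and 2.19 times in control hearts. Mutant replicate 1 had the lowest serpina1 level of the mutant hearts while its serpina1l level was close to the highest. With 20 to 59 serpina1 counts per control library, the control ratios rest on few reads.

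Both fetuin genes rose. The gene ahsg1 encodes fetuin-A, a plasma glycoprotein that in mammals binds calcium phosphate and restrains calcification of soft tissue. It had 48.1, 66.6 and 49.0 CPM in mutant hearts and 1.47, 0.493 and 0.631 CPM in control hearts. The groups were far apart, and control hearts held only 21 counts in all. The fitted log2 fold change was 5.95 (SE 0.38, edgeR adjusted p 9.22e-05), and 6.56 without control replicate 1, which held 12 of the 21 counts. The gene fetub encodes fetuin-B, known in mice as an inhibitor of the egg protease ovastacin. It had 770, 747 and 630 CPM in mutant hearts and 17.4, 11.7 and 15.4 CPM in control hearts, a ratio of means of 48.3. The mutant hearts differed by a factor of at most 1.22, the narrowest spread of the 8 genes. Its log2 fold change was 5.59 (SE 0.26, edgeR adjusted p 4.40e-05).

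The fetuin genes ahsg1 and fetub are neighbours on chromosome 22 of GRCz12tu. Their proportion ranged from 11.2 to 16.0 fetub counts per ahsg1 count in mutant hearts and from 11.8 to 24.4 in control hearts, where ahsg1 had 4 to 12 counts per library. The related gene ahsg2 (ENSDARG00000069293), which lies on another chromosome, also rose, with 67.7, 73.3 and 37.1 CPM in mutant hearts and 6.24, 4.44 and 3.28 CPM in control hearts. Its log2 fold change of 3.67 had a 95% interval of 2.88 to 4.45 (edgeR adjusted p 0.000510), which lies below the intervals of ahsg1 and fetub; the difference between genes was not tested.

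The precursor gene ambp rose in mutant hearts, with a wider spread between libraries. It had 119, 44.0 and 43.3 CPM in mutant hearts and 0.367, 1.85 and 1.64 CPM in control hearts. Mutant replicate 1 had 2.75 times the level of mutant replicate 3, and the lowest mutant heart was still 23.4 times the highest control heart. The log2 fold change was 5.73 (SE 0.61, edgeR adjusted p 0.000882). It was 5.09 without mutant replicate 1 and 4.65 without both libraries numbered 1, with adjusted p 0.000256 and 8.37e-06 in edgeR.

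Of the 5 heavy chain genes on the list of other plasma proteins, 4 were higher too. ITIH2 (ENSDARG00000045516) averaged 74.8 CPM in mutant and 2.36 CPM in control hearts, a log2 fold change of 4.98 (edgeR adjusted p 0.000341). The genes itih3a.1 and itih3b.1 had log2 fold changes of 6.18 and 8.82, each at an edgeR adjusted p of 0.000510, with 9 and 4 counts over all control hearts, and itih3b.1 had 7.86 without mutant replicate 1. ITIH5, a heavy chain gene that in mammals is expressed outside the liver as well, had a log2 fold change of 1.37 (edgeR adjusted p 0.0318), a call that ended without any 1 control, mutant replicate 1 or mutant replicate 2 (largest adjusted p 0.0962), and itih6, at 1.17 CPM in mutant and 0.615 CPM in control hearts, was not called. A further pair outside the list was looked up after the other values were seen. Of these, itih3b.2 averaged 312 CPM in mutant and 2.32 CPM in control hearts, a log2 fold change of 7.07 (edgeR adjusted p 0.000149; 6.48 without mutant replicate 1), and itih3a.2, at 3.09 CPM in mutant and 6.95 CPM in control hearts, was not called (edgeR adjusted p 0.336).

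Of the hemopexin genes, hpxa was not called and its paralog hpxb was. Hemopexin binds free heme in plasma with high affinity and carries it to the liver. The member hpxa had 5.15, 18.1 and 2.41 CPM in mutant hearts and 0.979, 0.247 and 2.02 CPM in control hearts, from 46, 161 and 25 counts and from 8, 2 and 16 counts. Every mutant heart was above every control heart, but the lowest mutant value was only 1.19 times the highest control value, and mutant hearts differed among themselves by a factor of 7.53. The log2 fold change was 2.97 (SE 0.87, 95% interval 1.00 to 4.94) with an edgeR adjusted p of 0.0684, so hpxa was not called. The adjusted p was 0.0376 without mutant replicate 3, the lowest mutant library, and the log2 fold change was 1.79 with an adjusted p of 0.240 without mutant replicate 2, the highest. DESeq2, which called 8.10% of its tested genes higher, called hpxa with an adjusted p of 0.00313, as did edgeR without a filter on low counts, with an adjusted p of 0.0304.

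Its paralog hpxb (ENSDARG00000051912) had 44.4, 12.7 and 9.25 CPM in mutant hearts and 0.122, 0.123 and 0 CPM in control hearts, where it had 2 counts in all. The ratio of its summed counts per scaled library was 260.1, with an exact 95% counting interval from 71.7 to 2153. It was called, at an edgeR adjusted p of 0.00163 and a log2 fold change of 7.83 (6.84 if mutant replicate 1 is left out). Its highest mutant library was replicate 1, whereas that of hpxa was replicate 2. The 95% interval of hpxb, 5.62 to 10.04, lies above that of hpxa, and the difference between the paralogs was not tested.

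**Figure D2:**
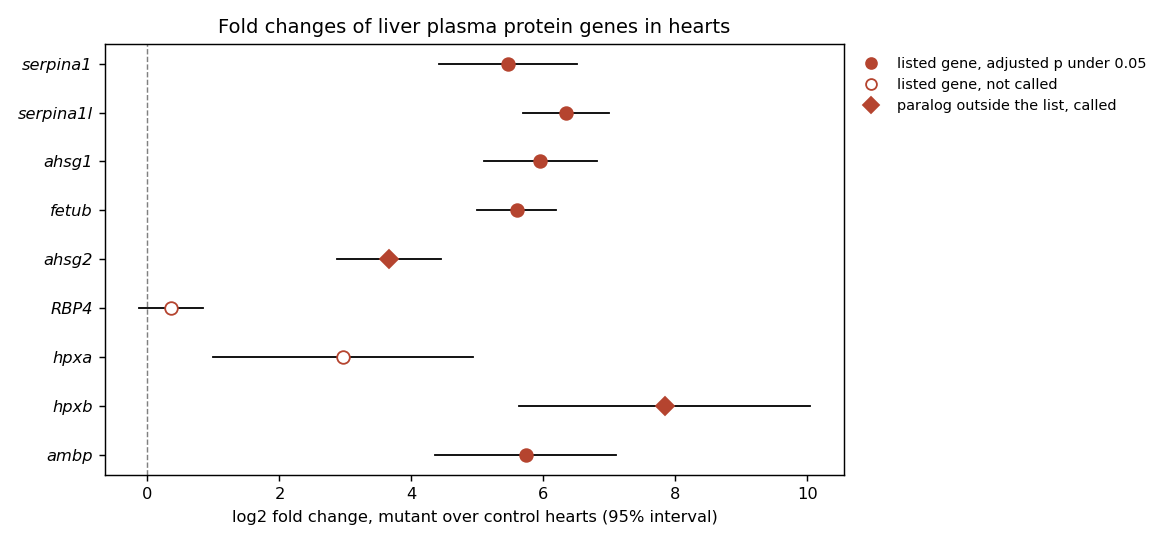
Log2 fold change of mutant over control hearts with its 95% interval for the 7 tested genes of the list (circles) and for the paralogs ahsg2 and hpxb (diamonds); filled symbols passed an edgeR adjusted p of 0.05, open ones did not. RBP4 at 0.36 and hpxa at 2.97 are the open symbols, and the interval of RBP4 includes 0.

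RBP4 was abundant in the hearts of both groups. It encodes the plasma carrier that takes retinol from liver stores to tissues. It had 348, 371 and 288 CPM in mutant hearts and 252, 318 and 215 CPM in control hearts, from 2994 to 3295 counts per library in mutants and 1708 to 2576 in controls. The ranges overlapped, since control replicate 2 was above mutant replicate 3. The log2 fold change was 0.36 (SE 0.22), with a 95% interval of -0.13 to 0.85 and an edgeR adjusted p of 0.364. The upper end of that interval is below the lower end of the interval of fetub, serpina1, serpina1l, ahsg1, ambp and hpxa. A rise of the size seen for fetub is therefore outside the interval of RBP4, and rises of up to 0.85 on the log2 scale are inside it.

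RBP4 took a different share of the 8 genes' counts in the 2 groups. It made up 19.5%, 19.3% and 19.6% of their counts in mutant hearts and 88.7%, 94.1% and 87.5% in control hearts. The 8 genes together were 0.210%, 0.202% and 0.154% of all gene counts in mutant hearts and 0.0266%, 0.0284% and 0.0238% in control hearts. fetub held the largest share in each mutant heart, 38.8% to 43.1%, and 3.47% to 6.25% in control hearts. These are shares of counts, which also depend on transcript length.

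TTR had few or no counts in every heart. Transthyretin carries thyroid hormone in plasma and, in mammals, holds RBP4 in the circulation. It had 3, 13 and 0 counts in mutant hearts and 5, 0 and 1 counts in control hearts, with levels of 0 to 1.46 CPM in mutants and 0 to 0.612 CPM in controls. It did not pass the filter on low counts. Without a filter its edgeR adjusted p was 0.712, and a difference was not detectable at this depth. The gene serpina7 (ENSDARG00000087143) is named for thyroxine-binding globulin, a thyroid hormone carrier in mammals. It was called, with 40.7, 20.5 and 14.7 CPM in mutant hearts and 0.612, 0 and 0.504 CPM in control hearts (log2 fold change 6.03, edgeR adjusted p 0.00115).

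Among 19 further serpin genes, 18 were tested, and 10 of these rose while none fell. Their median log2 fold change was 1.77. The leading ones were serpinf2b and serpinf2a, whose mammalian counterpart encodes the plasmin inhibitor alpha-2-antiplasmin, and serpina7. serpinf2b had 67.3, 39.1 and 26.3 CPM in mutant hearts and 0.734, 1.36 and 0.378 CPM in control hearts, a log2 fold change of 5.72 (edgeR adjusted p 0.000362). serpinf2a had a log2 fold change of 5.52 (edgeR adjusted p 0.000958), which was 6.29 without control replicate 3, the library with 8 of its control counts. The heparin cofactor gene SERPIND1, the antithrombin gene SERPINC1 and the C1 inhibitor gene serping1 were also called, with log2 fold changes of 5.55, 3.54 and 7.59. Without mutant replicate 1 these were 4.59, 2.74 and 6.72, and all 9 control counts of SERPIND1 were in control replicate 3, without which its log2 fold change was 10.33. serping1 had 514 counts in mutant and 2 in control hearts, which is 221 times as many per scaled library (exact 95% counting interval 60.8 to 1827). A SERPINH1 gene (ENSDARG00000019949) was called at an edgeR adjusted p of 0.0498. With 1 library left out it was called only without mutant replicate 2 (otherwise up to 0.131). A SERPINB1 gene (ENSDARG00000055416) was likewise called only without mutant replicate 3 (otherwise up to 0.157). The 8 tested serpins that were not called included serpina10a, at 66.3 CPM in mutant and 61.4 CPM in control hearts, and serpinb1l3, at 44.9 CPM in mutant and 46.4 CPM in control hearts.

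Of 23 further plasma carrier and inhibitor genes 22 were tested, and 18 rose while none fell, where 7.02% of all genes tested rose. The median log2 fold change was 4.84. Some calls ended with 1 library left out, as given above for ITIH5. Leaving out any 1 control ended the call of IGFBP1 (edgeR adjusted p up to 0.132). Leaving out any 1 control or mutant replicate 1 ended that of IGFALS (up to 0.0794). A VTN gene (ENSDARG00000055388) was not called without control replicate 3 (edgeR adjusted p 0.0673). By the smallest adjusted p the leading members were uox, GC and kng1. uox encodes urate oxidase, a peroxisomal enzyme and not a plasma protein, and averaged 46.5 CPM in mutant and 1.57 CPM in control hearts (log2 fold change 4.87, edgeR adjusted p 0.000168). The vitamin D binding protein gene GC had 38.3, 35.9 and 28.1 CPM in mutant hearts and 0.245, 0.370 and 1.26 CPM in control hearts (log2 fold change 5.75, edgeR adjusted p 0.000237, and 6.72 without control replicate 3), and the kininogen gene kng1 had a log2 fold change of 4.99 (edgeR adjusted p 0.000265). The genes not called were itih6, the selenium carrier gene selenop, apoda.1 and ptgdsb.1. The haptoglobin gene hp, the plasma binder of free hemoglobin, had 0.477 CPM in mutant and 0.457 CPM in control hearts and was not tested.

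Genes that take up and handle the carriers' cargo were read in a pair of lists. Of 25 genes of retinol transport and storage other than RBP4 and TTR, 12 were tested, 4 rose and 1 fell. Over all genes tested, 7.02% rose and 2.42% fell. The log2 fold changes of the 12 had a median of 0.34. The leading ones were a CRABP2 gene (ENSDARG00000073978), which encodes a cellular retinoic acid binding protein, with a log2 fold change of 2.30 (edgeR adjusted p 0.0120), and a RBP2 gene (ENSDARG00000070038) with 1.23 (edgeR adjusted p 0.0189). RDH10 (ENSDARG00000012369), an enzyme gene of retinoic acid synthesis, had 1.08 (edgeR adjusted p 0.0313), and the 1 that fell was RBP7 (ENSDARG00000070486) at -2.02 (edgeR adjusted p 0.0350; up to 0.115 without control replicate 2 or 3 or mutant replicate 2 or 3; log2 fold change -2.61 without mutant replicate 1). Leaving out control replicate 1 or 3, or mutant replicate 2, ended the call of this RBP2 gene (largest edgeR adjusted p 0.0988). Leaving out any 1 control or mutant replicate 1 ended that of RDH10 (largest edgeR adjusted p 0.127). Both calls also ended without both libraries numbered 1 (edgeR adjusted p 0.0536 and 0.117). The remaining gene that rose was a CRABP1 gene (ENSDARG00000035904). Its call ended with any 1 library left out (edgeR adjusted p 0.0562 to 0.173). Other tested entries with these symbols were not called. A second RDH10 entry (ENSDARG00000058730) averaged 70.1 CPM in mutant and 61.7 CPM in control hearts (log2 fold change 0.18). A second RBP2 entry (ENSDARG00000093774) had 2.04 (edgeR adjusted p 0.108). With 1 library left out, log2 fold changes were -2.45 to -1.50 for CRABP1 ENSDARG00000045926 and 0.03 to 0.43 for CRABP2 ENSDARG00000030449. STRA6, the cell surface receptor gene for RBP4, had 1.35 CPM in mutant and 0.664 CPM in control hearts and was not tested.

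Of 10 genes of heme and hemoglobin scavenging other than hpxa and ambp, 8 were tested, none rose and 1 fell. Over all genes tested, 7.02% rose and 2.42% fell. The gene that fell was blvrb, a biliverdin reductase gene that red cells also express. It had 21.8, 17.6 and 17.9 CPM in mutant hearts and 186, 222 and 140 CPM in control hearts (log2 fold change -3.26, edgeR adjusted p 0.000128). The heme oxygenase gene HMOX1 averaged 14.3 CPM in mutant and 13.9 CPM in control hearts, and the hemopexin receptor genes carrying the symbol LRP1 had log2 fold changes of 0.74 and 0.71, which did not pass the test.

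**Figure D3:**
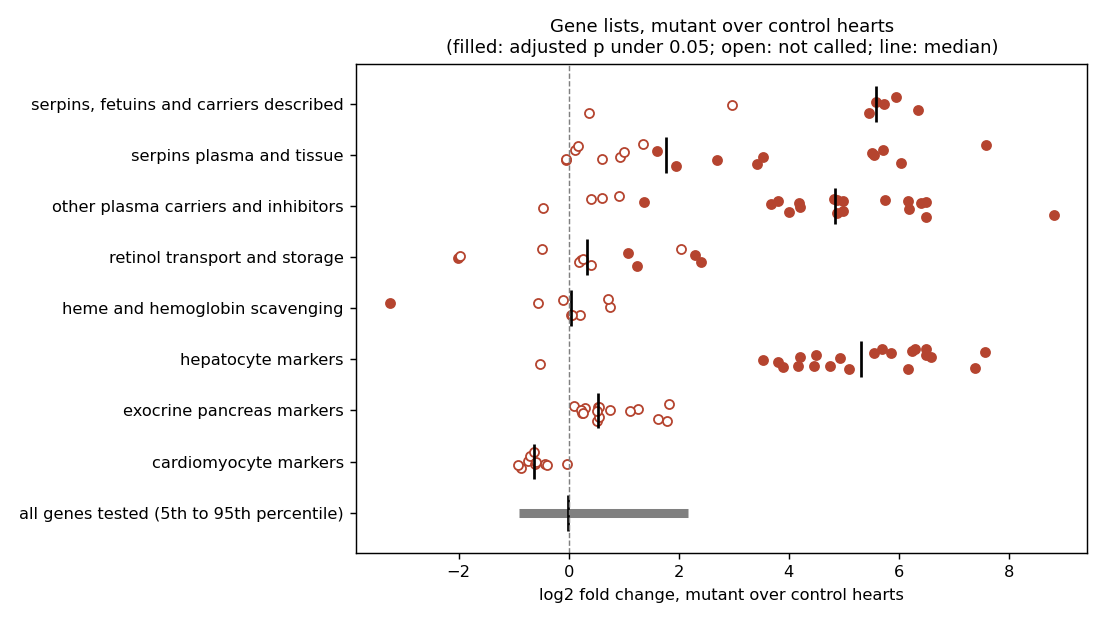
Log2 fold changes of mutant over control hearts for each tested gene of the list described and of 7 other lists; filled points passed an edgeR adjusted p of 0.05, lines are medians, and the grey bar spans the 5th to the 95th percentile of all 16707 genes tested, -0.91 to 2.16. Serpins, other plasma carriers and hepatocyte markers reach far beyond the bar on the higher side, while the retinol, heme, exocrine pancreas and cardiomyocyte lists lie mostly within it.

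Markers of hepatocytes moved with these genes. Of 22 hepatocyte marker genes, all tested, 21 rose and the remaining gene, HPD, was not called. The median log2 fold change was 5.32, and without control replicate 3 there were 19 that rose. Some of them, such as tfa, CP, SERPINC1 and the VTN genes, are also in the serpin and carrier lists above. The complement gene c9 had 204, 132 and 114 CPM in mutant hearts and 1.39 to 1.96 CPM in control hearts (log2 fold change 6.50, edgeR adjusted p 5.21e-05). The apolipoprotein gene apoa2 and the fibrinogen gene FGB had log2 fold changes of 4.45 and 6.59 (edgeR adjusted p 0.000149 and 0.000221). The markers summed to 8589, 6204 and 4770 CPM in mutant hearts and 271, 209 and 229 CPM in control hearts, and none of the 22 was at 0 in all hearts of either group. Their part in the results above was not tested, and in these bulk libraries more cells of a type and more RNA per cell cannot be told apart.

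Set against that sum, the genes differed from each other. serpina1l was 3.83%, 5.34% and 4.52% of the summed hepatocyte marker CPM in mutant hearts and 1.58%, 1.47% and 1.48% in control hearts. fetub was 8.97%, 12.0% and 13.2% in mutant and 6.41%, 5.60% and 6.71% in control hearts, so for both every mutant value lay above every control value. ahsg1 was 0.560%, 1.07% and 1.03% in mutant and 0.541%, 0.236% and 0.275% in control hearts, also without overlap, though mutant replicate 1 and control replicate 1 were close. The proportions of serpina1, ambp, hpxa and TTR overlapped between groups, with serpina1 at 1.95% to 5.59% in mutant and 1.18% to 3.24% in control hearts. RBP4 was 4.05%, 5.98% and 6.04% in mutant and 93.1%, 152% and 93.9% in control hearts. These percentages are quotients of CPM and were not tested. The sum weighs abundant markers most. Of these, tfa and apoa2, at means of 70.9 and 31.0 CPM in control hearts, had log2 fold changes of 4.21 and 4.45. The median of the marker list was 5.32. A higher percentage in mutant hearts therefore need not be a rise beyond that of most markers.

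**Figure D4:**
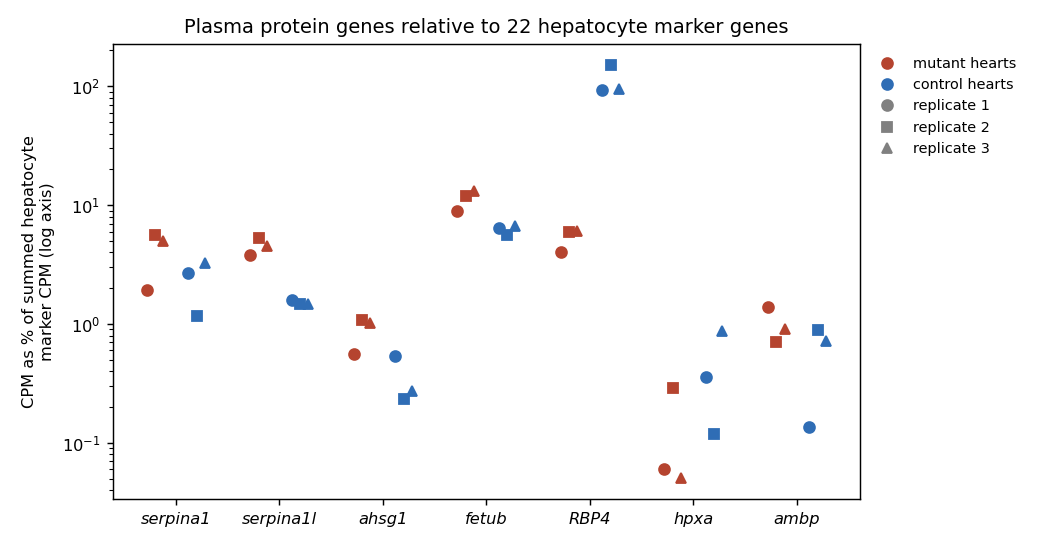
CPM of 7 of the genes as a percentage of the summed CPM of 22 hepatocyte marker genes (log axis), in mutant hearts, drawn left, and control hearts, drawn right, for each gene; each point is 1 library and its shape gives the replicate number. RBP4 lies at 93.1% to 152% in control hearts and 4.05% to 6.04% in mutant hearts, while the other genes lie closer together between groups; TTR is left out because of its near-zero counts.

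Markers of other tissues that border the heart or liver gave mixed values. Of 12 transcription factor genes of liver and endoderm 7 were tested and 3 rose, foxa3, FOXA1 and HNF4A. HNF4A had 15.8, 6.08 and 1.64 CPM in mutant hearts and no count in any control heart (edgeR adjusted p 0.0150), and the calls of HNF4A and FOXA1 were lost without control replicate 3, with adjusted p of 0.0547 and 0.0685. Of 16 tested exocrine pancreas genes none was called and 18 such genes summed to 83.4 to 965 CPM in mutant and 21.2 to 682 CPM in control hearts, so the groups overlapped. Of 10 tested gut epithelium genes 4 rose, led by apoa4b.1 with a log2 fold change of 3.94 (edgeR adjusted p 0.000321). The calls of the other 3 ended with 1 library left out: FABP2 without control replicate 3 (adjusted p 0.0666), gpa33b without any 1 control (up to 0.0905), and apoa4b.2 without control replicate 1 or 3 or mutant replicate 1 (up to 0.161). The list summed to 55.1 to 172 CPM in mutant and 13.6 to 21.0 CPM in control hearts.

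Among further lists, the endocrine pancreas gene gcga, the 1 gene tested of 8, was called higher, at 7.39, 14.1 and 8.86 CPM in mutant hearts and 0.734, 1.97 and 0.504 CPM in control hearts (edgeR adjusted p 0.00739). All 9 myeloid markers rose, led by the phagocyte oxidase gene cybb with a log2 fold change of 2.94 (edgeR adjusted p 0.000382). With 1 library left out, edgeR adjusted p reached 0.119 for CORO1A, 0.118 for LCP1 and 0.0980 for marco. All 7 tested red cell markers fell, led by epb41b with -5.61 (edgeR adjusted p 8.30e-05). Among them, gata1a kept its call only without mutant replicate 2 (edgeR adjusted p up to 0.136 with another library left out). Of 10 skin epithelium genes 1 rose, where 7.02% of all genes tested rose. It was cdh1, with a log2 fold change of 2.35 (edgeR adjusted p 0.0158, up to 0.0733 with any 1 control left out, and log2 fold change 1.64 without mutant replicate 1). Of 5 tested kidney genes 1 fell, where 2.42% of all genes tested fell. It was an SLC20A1 entry (ENSDARG00000020114), with a log2 fold change of -5.68 (edgeR adjusted p 0.000627) and of -6.69 without mutant replicate 1. The list named slc20a1a, which was matched only by the symbol SLC20A1, so which entry is that paralog is uncertain. The other entry (ENSDARG00000010641) was not called, with log2 fold changes of 0.55 to 0.92 with 1 library left out. None of 7 neural and 10 cardiomyocyte genes was called. The tested cardiomyocyte genes had a median log2 fold change of -0.63. The sum of all 11 was lower in mutant hearts, 25245 to 45435 CPM against 54538 to 70260 CPM, without overlap, and was not tested. The most abundant cardiomyocyte gene was MYH7 (ENSDARG00000079782), with a log2 fold change of -0.70 (edgeR adjusted p 0.393). Its level in every mutant heart was below that in every control heart. The part of these lists in the results on plasma protein genes was not tested.

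Among the 5 genes whose profile over the 6 hearts was most like the mean profile of the 7 tested members were PARP8 (Pearson r 0.995), PLXNC1 (r 0.994), apoc1 (r 0.994) and ccdc86 (r 0.994). They were ranked among 13051 genes by log2 CPM, and 14 genes had an r above 0.99. The 6 libraries form 2 groups and share their processing. The log2 fold changes of the named genes were 1.62, 1.78, 2.93 and 0.82, all smaller than those of serpina1l and fetub. Among the members themselves, r with the mean profile was 0.953 to 0.994 for serpina1, serpina1l, ahsg1, fetub and ambp, 0.843 for hpxa and 0.741 for RBP4. Each member is itself part of that mean profile, which raises its r.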

How the data were processed

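The authors deposited 1 file of raw counts for each library, not normalised. Aligner and counter were TopHat2 2.2.1 with Bowtie2 2.2.3, and HTSeq 0.6.1p1, on build GRCz10, according to names in the submitters' processing notes. Neither the strand setting nor the annotation release is given in the sources used here, so overlapping and antisense genes cannot be told apart. Lines of reads assigned to no gene, 42.4% to 48.8% in no feature in heart files and 10.0% and 9.53% in embryo-labelled files, stayed out of library sizes. Symbols came from a table naming 26121 of 31953 IDs; neighbouring genes from RefSeq GRCz12tu, with no coordinates used.

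The comparison of hearts used edgeR 4.0.16 (R 4.3.3; filterByExpr with a minimum count of 10, TMM, quasi-likelihood F test, genotype as the only term, Benjamini-Hochberg adjustment over all genes tested, threshold 0.05). SE is the log2 coefficient over the square root of F, and intervals are 95%. The exact counting interval covers counting error only. Alternatives used DESeq2 1.42.0, other scalings and filters, a replicate block, and left-out libraries. Named are all 8 members, and from each other list up to 3 called genes with the smallest adjusted p, or the most abundant where none was called; not all of these are described, and further list genes were named after their values were seen. Genes most alike needed a mean of at least 2 CPM and a symbol that is not provisional; log2 CPM there used a prior count of 2. Members and lists were chosen with earlier results of these data known. The same fit was tested on simulated counts of 16707 genes: of 100 genes shifted 4-fold 81% were recovered, of 100 shifted 2-fold 9%, with 7 false among 97 calls. The shifted genes had a mean of at least 2 CPM over the hearts, and all were shifted upward in mutants. The recovery rates therefore do not cover genes of lower mean or genes that fell. Some genes that the naming rule selects are not reported here.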

Additional observations from a re-analysis of the deposited data

Results flagged for a closer look

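The library labelled control embryo shares its totals with mutant heart replicate 1, and no comparison uses it. It held the 8 genes above their highest level in any control heart, for TTR with only 11 counts against at most 5. In CPM of gene counts without TMM it had 202 for serpina1, 400.2 for serpina1l, 54.6 for ahsg1, 936 for fetub, 0.749 for TTR, 422 for RBP4, 5.31 for hpxa and 150 for ambp. The library labelled mutant embryo had 8.06 for serpina1, 4.24 for serpina1l, 15.5 for fetub and 246 for RBP4. Mutant heart replicate 1, which has the same total of all lines as the library labelled control embryo, had 0.483 to 0.590 of that library's count for 7 of the genes, where the median over 14361 genes was 0.503, and 3 counts of TTR against 11. This pair of files also shares its number of non-unique alignments, 2130930, and the 5th to 95th percentile of the ratio was 0.425 to 0.632. The library labelled mutant embryo and control heart replicate 1 likewise share 2907502 non-unique alignments, with a median ratio of 0.504. The embryo-labelled values are therefore not independent of these hearts and are no evidence about embryos. With 1 library per label no test was possible.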

How the results depend on the processing

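The calls of serpina1, serpina1l, ahsg1, fetub and ambp were kept under all 13 alternatives, with edgeR or DESeq2 adjusted p up to 0.0105. RBP4 was called under none, with log2 fold changes from 0.22 to 0.63 and adjusted p from 0.0763. hpxa was called with DESeq2 (log2 fold change 2.97), without a filter (2.95) and without mutant replicate 3 (3.41); the cause was not tested. Members called numbered 5 or 6 throughout. Other serpin, carrier, retinol and heme genes called numbered 34 of 60, and 24 to 31 with 1 library left out. Over all genes 1576 were called; with 1 library left out the number ran from 604 (without control replicate 3) to 1302. Scaling by library size without TMM factors made 87.5% of calls higher ones (74.4% in the main analysis) and moved the median of all genes to 0.25 on the log2 scale, and RBP4 was not called there either. Same-numbered hearts did not deviate together in all pairs (r 0.0955, 0.219 and -0.0830 for numbers 1 to 3); with the replicate block 1476 genes and 5 members were called, and 30 of the 60 other genes. Low control counts limit the size of the folds of ahsg1, hpxa and ambp.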

Other observations

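The paralog rbp4l (ENSDARG00000044684) had 163, 2 and 0 counts in mutant hearts and 1, 3 and 25 counts in control hearts, and was not tested. The library labelled control embryo, which shares its total of all lines with mutant heart replicate 1, held 5 counts of rbp4l, so the heart file has 32.6 times that count where the median ratio is 0.503. Its heart counts are therefore uncertain.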
